A study of Mus musculus with 16 samples.

Results

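The 48 genes described here are those of the mitotic spindle, the kinetochore and cytokinesis, with the kinases and cyclins that bring a cell into mitosis. They were taken by symbol from a table of raw counts per gene, and all 48 of them were found among its 21640 genes. By their known expression over the cell cycle, 44 were classed as mitosis-peaking and 4 (Bub3, Mis12, Dsn1 and Cenpc1) as constitutive, that is, also made in cells that do not divide. Whole thyroids of 16 male wild-type (WT) mice of the C57Bl/6J strain were sequenced, 1 library per mouse. The mice received either chow (the control diet, CD) or a high-fat diet with sucrose water (HF+SD) from 8 weeks of age, for 3 or for 6 weeks, with 4 mice per diet and time point. All groups were wild type, and the labels name no treatment beside the diet. In whole tissue, a change in the number of dividing cells and a change in RNA per cell cannot be told apart.

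Dividing cells make most of these genes late in the cell cycle, shortly before and during mitosis, and destroy many of the proteins when mitosis ends, so that resting tissue holds little of their RNA. The kinetochore is the protein assembly on each centromere that binds spindle microtubules. The spindle checkpoint delays anaphase until every kinetochore is bound, and cytokinesis then separates the daughter cells. The adult thyroid renews itself slowly, and thyrocytes, the hormone-producing cells of its follicles, can be driven to divide by thyrotropin (TSH).

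Library totals ran from 30025256 to 48508653 counts. Tg, which encodes the thyroglobulin that thyrocytes store, took 4.73% to 13.6% of counts at 6 weeks and 26.8% to 29.7% at 3 weeks. The library names of the 2 time points begin with different numbers, so levels were compared between diets within a time point only, and the library series and time cannot be told apart. At 6 weeks, 30 skeletal muscle genes took 0.110% to 16.6% of counts on the CD, with M22 (0.110%) below M43 (3.90%), M48 (11.9%) and M45 (16.6%). Their share was 0.138% to 0.462% in the HF+SD mice at 6 weeks and at most 0.0248% in any mouse at 3 weeks. Results that move with this share are given below with and without the mice concerned. Levels are given as CPM, the counts of a gene scaled by the library's total after TMM scaling. A gene was called higher or lower at an adjusted p under 0.05 with a log2 fold change beyond 1 in size.

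At both time points most of the mitotic genes were higher on the HF+SD than on the CD. At 6 weeks 34 of the 48 were called higher and 0 lower (edgeR's quasi-likelihood test, Benjamini-Hochberg adjustment over all tested genes), where 6.64% of all 18249 tested genes were called higher and 6.01% lower. At 3 weeks 36 were called higher and 0 lower, where 3.25% of 17238 tested genes were called higher and 1.40% lower. At an unadjusted p under 0.05, 0 members were lower at either time point, and DESeq2 also called 0 lower. With no minimum on the fold change, 37 of the 48 passed as higher at 6 weeks and 39 at 3 weeks, against 12.0% and 9.07% of all genes. As lower, 0 members passed in this way, against 9.55% of all genes at 6 weeks and 5.78% at 3 weeks. All 48 passed the filter on low counts at both time points, and none was lost from these counts. A gene low on the CD can pass this filter through the HF+SD mice alone. With at least 10 counts required in every library, 43 members were tested at 6 weeks (29 higher) and 38 at 3 weeks (26 higher). Under that filter 5.84% and 2.55% of all genes were higher. In 36 members at 6 weeks every HF+SD mouse lay above every CD mouse, as did 13.8% of all genes. The same held for 41 members at 3 weeks, against 13.1% of all genes. No member had every HF+SD mouse below every CD mouse, an arrangement found in 9.97% of all genes at 6 weeks and 10.5% at 3 weeks. For such a member the exact permutation test of 4 mice against 4 gives its smallest possible p of 0.0286 (two-sided).

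The mitosis-peaking and the constitutive members had different distributions of change. The 44 mitosis-peaking members had a median log2 fold change of 2.29 at 6 weeks (quartiles 1.23 and 2.77) and of 1.96 at 3 weeks (quartiles 1.49 and 2.58). The 4 constitutive members had medians of 0.24 and -0.12, and the median over all tested genes was -0.011 and -0.0083. None of the 4 was called at either time point by edgeR or by DESeq2, and 1 of them (Dsn1) was higher at an unadjusted p under 0.05 at each. The log2 scale here is that of CPM, and no test was made of the difference between the classes.

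**Figure D1:**
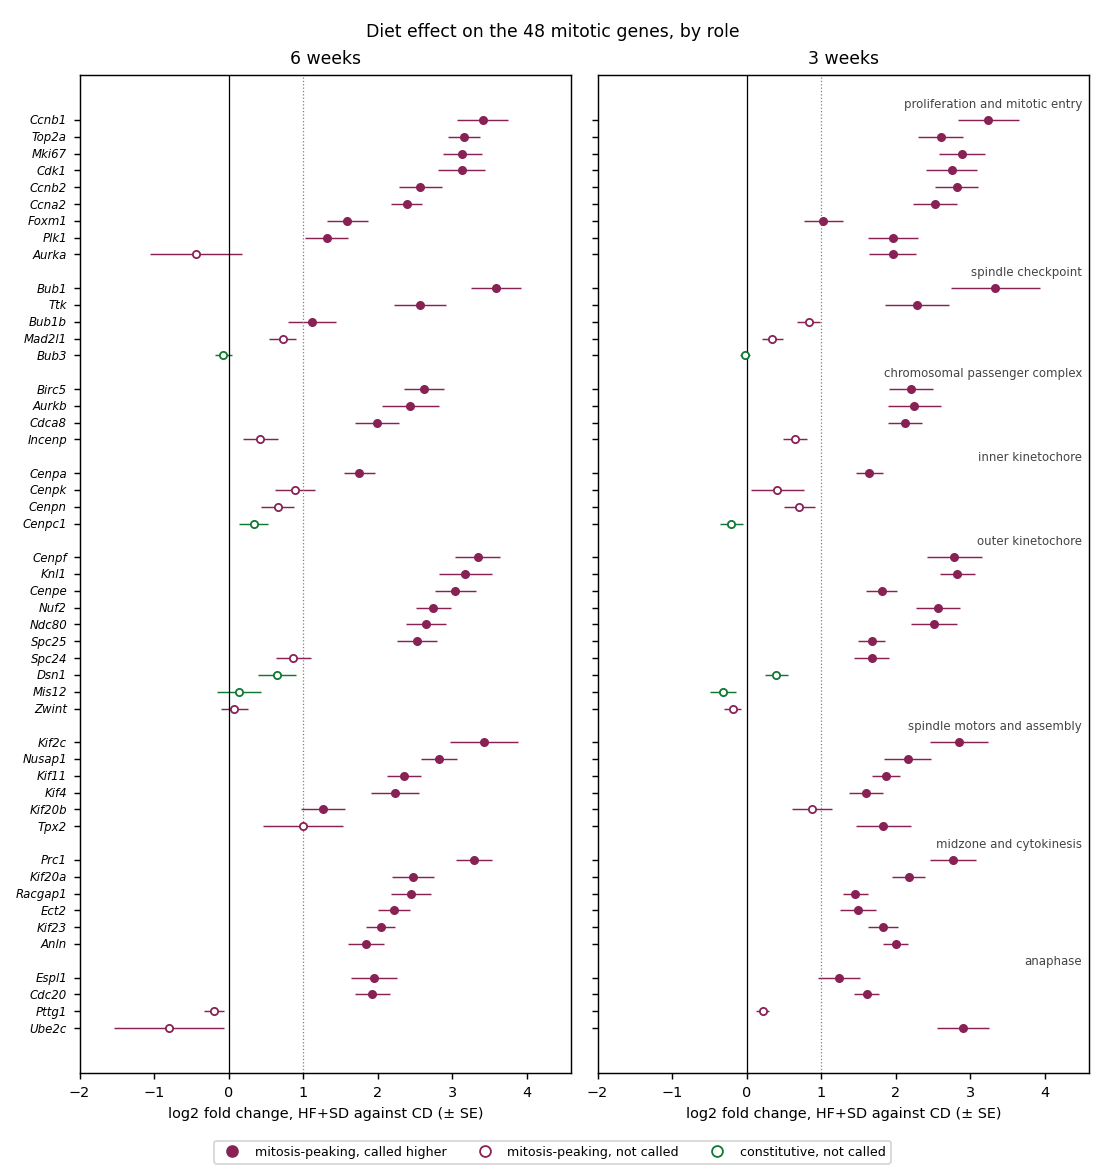
The log2 fold change of each of the 48 genes, HF+SD against CD (x axis, with its SE as a bar), at 6 weeks on the left and 3 weeks on the right. Filled points were called higher, open points were not called, purple marks mitosis-peaking and green constitutive genes. Filled points reach from 1.12 (Bub1b) to 3.59 (Bub1) at 6 weeks, and the 4 green points lie between -0.31 (Mis12, 3 weeks) and 0.65 (Dsn1, 6 weeks).

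Of the mitosis-peaking members, 32 were called higher at both time points. Bub1b and Kif20b were called at 6 weeks and missed a criterion at 3 weeks. Aurka, Spc24, Tpx2 and Ube2c were called at 3 weeks and missed a criterion at 6 weeks. The remaining 10, called at neither, were the 4 constitutive genes with Mad2l1, Incenp, Cenpk, Cenpn, Zwint and Pttg1. Whether the diet effect differed between time points was tested over all 16 libraries as an interaction. The test found 0 of 48 members at an adjusted p under 0.05, where 0.0792% of 18929 genes passed (edgeR). At an unadjusted p under 0.05 there were 8 members, and 22.3% of all genes. DESeq2 passed 4 of the 48, namely Ube2c and Aurka with a smaller effect at 6 weeks and Cenpe and Racgap1 with a larger one, where it passed 9.46% of all genes, so that the members were no more frequent than genes at large.

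The sequence upstream of the start site was read for the members because many mitosis-peaking genes are known to be held down outside mitosis through a cell cycle genes homology region (CHR), usually with CCAAT boxes nearby. The RefSeq promoter table (GRCm38.p6, 250 bases before to 50 after each start) held 46 promoters of 41 members. Both strands were searched for the CHR letters TTTGAA or TTTAAA and for CCAAT, and the CHR and CCAAT letters do not overlap in the sequences shown. Printed below are the 120 bases before the start site of 4 members called at both time points and of 2 constitutive ones, read along the gene's strand, with matches in capitals (ATTGG is CCAAT and TTCAAA is TTTGAA on the opposite strand). Cdk1 and Ccnb1 are the mitotic kinase and its cyclin, Kif11 is a spindle motor, Prc1 bundles midzone microtubules, Bub3 is a checkpoint protein and Mis12 a kinetochore subunit.
Cdk1 (chr10:69352913-69353032, minus strand): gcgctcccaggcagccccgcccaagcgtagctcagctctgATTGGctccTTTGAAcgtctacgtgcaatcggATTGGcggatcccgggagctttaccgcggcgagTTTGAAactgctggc
Ccnb1 (chr13:100786487-100786606, minus strand): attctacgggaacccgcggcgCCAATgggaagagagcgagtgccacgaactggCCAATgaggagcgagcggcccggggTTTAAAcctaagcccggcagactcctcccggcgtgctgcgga
Kif11 (chr19:37376262-37376381, plus strand): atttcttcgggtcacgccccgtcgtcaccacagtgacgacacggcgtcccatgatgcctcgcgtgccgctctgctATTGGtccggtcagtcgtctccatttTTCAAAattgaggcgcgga
Prc1 (chr7:80294356-80294475, plus strand): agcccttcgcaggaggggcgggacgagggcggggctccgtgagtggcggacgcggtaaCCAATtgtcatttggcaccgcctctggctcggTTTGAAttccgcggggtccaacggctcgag
Bub3 (chr7:131560250-131560369, plus strand): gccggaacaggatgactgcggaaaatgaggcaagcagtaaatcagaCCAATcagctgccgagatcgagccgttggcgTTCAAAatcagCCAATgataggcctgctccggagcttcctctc
Mis12 (chr11:71019491-71019610, plus strand): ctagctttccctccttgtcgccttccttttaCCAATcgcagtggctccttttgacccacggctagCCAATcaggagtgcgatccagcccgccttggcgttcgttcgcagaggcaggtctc

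A CHR match of either kind lay in 78.3% of the 46 member promoters and in 27.6% of all 32851 promoters in the table. Of the members called higher at both time points, 90.0% of 30 promoters held a CHR match, and of those called at neither, 41.7% of 12 promoters did. A CHR match together with 2 or more CCAAT boxes was found in 41.3% of member promoters and in 3.13% of all promoters. Such matches also occurred in members that were not called. Bub3, printed above, has a CHR match and 2 CCAAT boxes, and Zwint has a CHR match with 2 CCAAT boxes, while Dsn1, Mad2l1 and Pttg1 had no match of either kind in the window. In turn Nuf2 and Nusap1, which were higher at both time points, had no match. A match is a description of the letters in these windows, and no factor's binding was measured. Some members have more than 1 start in the table.

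Among mitotic entry genes the exception was Aurka, described with Ube2c and Tpx2 further on. Of the 9 genes of this role 8 were called higher at 6 weeks and 9 at 3 weeks, with median log2 fold changes of 2.57 and 2.61. The values of single mice are listed throughout in the order M22, M43, M45, M48 (CD) and M5, M18, M34, M35 (HF+SD) for 6 weeks, and M53, M54, M55, M96 (CD) and M7, M19y, M20y, M31 (HF+SD) for 3 weeks. Mki67 encodes Ki-67, the nuclear protein used as a marker of cycling cells. At 6 weeks Mki67 measured 5.02, 3.68, 3.05 and 5.60 CPM on the CD and 26.3, 49.3, 41.6 and 35.4 CPM on the HF+SD. At 3 weeks it measured 5.17, 3.50, 2.26 and 1.59 CPM on the CD and 23.3, 24.6, 26.1 and 18.7 CPM on the HF+SD. The lowest HF+SD mouse lay far above the highest CD mouse at both times, and the means went from 4.34 ± 1.18 CPM on the CD to 38.1 ± 9.75 CPM on the HF+SD at 6 weeks and from 3.13 ± 1.58 CPM on the CD to 23.2 ± 3.21 CPM on the HF+SD at 3 weeks (SD, n = 4). Mki67 thus had log2 fold changes of 3.13 ± 0.26 (SE), adjusted p = 0.000194, and 2.89 ± 0.31 (SE), adjusted p = 0.000598.

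Cdk1, the kinase that drives entry into mitosis, was at 1.12, 1.26, 0.585 and 1.48 CPM on the CD and 6.57, 11.3, 12.5 and 8.70 CPM on the HF+SD at 6 weeks. At 3 weeks its levels were 1.26, 0.846, 0.360 and 0.568 CPM on the CD and 3.79, 6.07, 6.15 and 4.52 CPM on the HF+SD. No mouse of one diet reached into the other, and the log2 fold changes were 3.13 ± 0.32 (SE), adjusted p = 0.000398, at 6 weeks and 2.75 ± 0.34 (SE), adjusted p = 0.00102, at 3 weeks. Ccnb1 encodes cyclin B1, the partner of Cdk1. Ccnb1 stood at 0.660, 0.708, 0.260 and 0.654 CPM on the CD and 3.98, 6.93, 8.00 and 5.72 CPM on the HF+SD at 6 weeks. Its 3-week values were 0.495, 0.649, 0.231 and 0.0947 CPM on the CD and 3.39, 3.74, 3.62 and 3.09 CPM on the HF+SD. The groups lay well apart, although M45 at 6 weeks and M96 at 3 weeks were low even among CD mice. Ccnb1 was among the 5 largest changes at both times, with log2 fold changes of 3.41 ± 0.34 (SE), adjusted p = 0.000379, and 3.24 ± 0.41 (SE), adjusted p = 0.00112. Ccna2, which encodes cyclin A2 of S phase and early mitosis, gave 1.84, 1.76, 1.10 and 1.59 CPM on the CD and 6.96, 9.06, 8.84 and 8.22 CPM on the HF+SD at 6 weeks. The 3-week levels of Ccna2 were 1.01, 1.81, 1.16 and 0.544 CPM on the CD and 5.68, 7.40, 6.62 and 6.17 CPM on the HF+SD. Its diets did not overlap, with log2 fold changes of 2.39 ± 0.21 and 2.52 ± 0.29 (SE), adjusted p = 0.000212 and 0.000778. Ccnb2, which encodes cyclin B2, rose by 2.57 ± 0.29 and 2.82 ± 0.29 on the log2 scale (SE), adjusted p = 0.000565 and 0.000497.

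Top2a encodes the topoisomerase that untangles sister chromatids. Its values were 2.47, 2.76, 2.73 and 2.87 CPM on the CD and 19.2, 26.6, 32.5 and 18.5 CPM on the HF+SD at 6 weeks. At 3 weeks Top2a was at 3.49, 3.50, 2.67 and 1.04 CPM on the CD and 15.3, 17.0, 16.8 and 15.8 CPM on the HF+SD. The CD mice lay within a narrow band at 6 weeks, M96 was the lowest CD mouse at 3 weeks, and the diets did not overlap at either time. The log2 fold changes of Top2a were 3.16 ± 0.22 (SE), adjusted p = 0.000103, and 2.61 ± 0.30 (SE), adjusted p = 0.000773. Plk1, a kinase of centrosomes and kinetochores, measured 1.46, 0.731, 0.682 and 0.853 CPM on the CD and 1.66, 2.63, 2.36 and 2.66 CPM on the HF+SD at 6 weeks. At 3 weeks the values of Plk1 were 0.668, 1.27, 0.437 and 0.497 CPM on the CD and 2.42, 2.25, 3.57 and 2.90 CPM on the HF+SD. The gap between diets was narrow for Plk1 at 6 weeks, where M22 on the CD nearly reached M5 on the HF+SD. For Plk1 the log2 fold changes were 1.32 ± 0.29 (SE), adjusted p = 0.0147, and 1.96 ± 0.33 (SE), adjusted p = 0.00454. Foxm1, the transcription factor that activates many of the other members, was at 1.29, 0.891, 0.682 and 0.910 CPM on the CD and 1.87, 3.57, 2.79 and 3.20 CPM on the HF+SD at 6 weeks. Its 3-week levels were 2.30, 2.37, 3.24 and 1.18 CPM on the CD and 4.09, 4.68, 5.25 and 4.50 CPM on the HF+SD. The diets were separate at both times, with log2 fold changes of 1.59 ± 0.27 (SE), adjusted p = 0.00476, and 1.03 ± 0.26 (SE), adjusted p = 0.0273. At 3 weeks Foxm1 stood close to the fold minimum and missed it or the adjusted p in 5 of the 8 fits that left out 1 mouse, with log2 fold changes from 0.81 (without M96) to 1.25 (without M55).

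**Figure D2:**
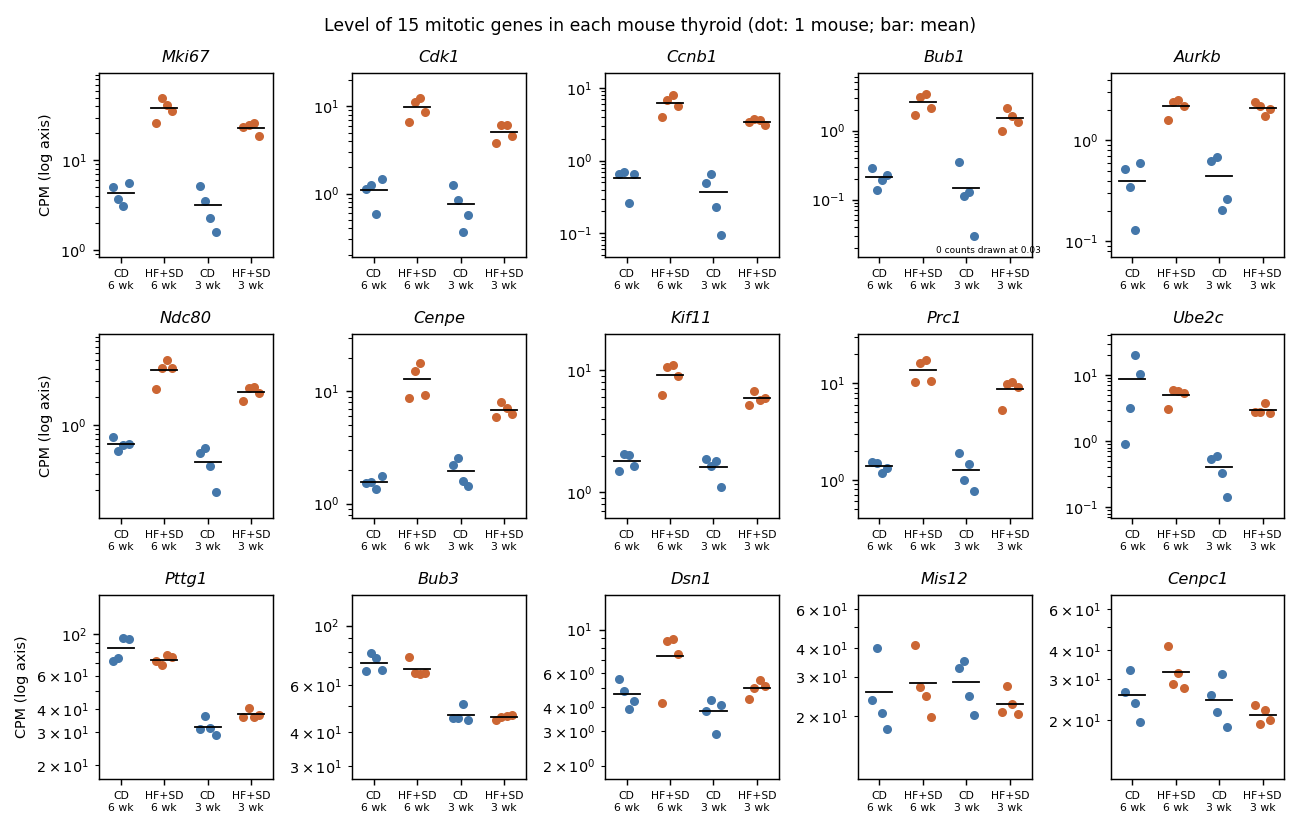
CPM (log axis) of 15 of the genes in every mouse, blue for the CD and orange for the HF+SD, with 1 dot per mouse and a bar at the mean. The 9 genes from Mki67 to Prc1 have every orange dot above every blue dot of the same time point, Ube2c does so at 3 weeks but not at 6 weeks, and Bub3 and Mis12 overlap at both. The 1 library without a count for Bub1 is drawn at 0.03 CPM.

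Within the spindle checkpoint, the size of the change differed by gene. Of 5 genes, 3 were called higher at 6 weeks and 2 at 3 weeks. The kinase gene Bub1 had the largest log2 fold change of the 48 genes at both time points. At 6 weeks its level was 0.287, 0.137, 0.195 and 0.227 CPM on the CD and 1.69, 3.10, 3.34 and 2.10 CPM on the HF+SD. At 3 weeks it was 0.347, 0.113, 0.129 and 0 CPM on the CD and 0.995, 2.10, 1.60 and 1.35 CPM on the HF+SD. The mouse at 0 was M96, in which 3 counts would be 0.0710 CPM, and all HF+SD mice lay above all CD mice. The log2 fold changes of Bub1 were 3.59 ± 0.34 (SE), adjusted p = 0.000276, and 3.34 ± 0.60 (SE), adjusted p = 0.00599. They rest on few CD counts per library, 6 to 10 at 6 weeks and 0 to 14 at 3 weeks. With 1 mouse left out, the 3-week value ran from 2.91 (without M96) to 4.22 (without M53). Ttk, which encodes the checkpoint kinase MPS1, was at 0.287, 0.274, 0.325 and 0.284 CPM on the CD and 0.923, 2.38, 2.33 and 1.40 CPM on the HF+SD at 6 weeks. Its 3-week values were 0.347, 0.226, 0.231 and 0.0710 CPM on the CD and 0.592, 1.38, 1.22 and 1.10 CPM on the HF+SD. M5 and M7 were the lowest HF+SD mice for Ttk and still exceeded every CD mouse, and the log2 fold changes were 2.57 ± 0.35 (SE), adjusted p = 0.00151, and 2.29 ± 0.42 (SE), adjusted p = 0.00699.

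Bub1b, Mad2l1 and Bub3 had smaller log2 fold changes. Bub1b, which encodes the checkpoint protein BUBR1, measured 4.45, 8.31, 4.52 and 3.18 CPM on the CD and 7.28, 12.7, 14.8 and 9.83 CPM on the HF+SD at 6 weeks. At 3 weeks Bub1b was at 6.01, 5.13, 4.04 and 6.22 CPM on the CD and 8.42, 10.4, 9.23 and 10.1 CPM on the HF+SD. M43 on the CD lay above M5 on the HF+SD at 6 weeks, and the diets were separate at 3 weeks. The log2 fold changes were 1.12 ± 0.33 (SE), adjusted p = 0.0379, at 6 weeks and 0.83 ± 0.15 (SE), adjusted p = 0.00669, at 3 weeks, the second below the fold minimum. The 6-week call was lost in 6 of the 8 fits that left out 1 mouse, with log2 fold changes from 0.95 (without M48) to 1.43 (without M43). Mad2l1 encodes MAD2, which holds back the anaphase activator CDC20. Mad2l1 stood at 7.92, 8.45, 5.52 and 6.74 CPM on the CD and 11.4, 11.1, 14.2 and 10.7 CPM on the HF+SD at 6 weeks. The 3-week values were 6.63, 5.22, 5.17 and 4.62 CPM on the CD and 7.45, 6.60, 7.29 and 6.13 CPM on the HF+SD. The diets were apart at 6 weeks and overlapped at 3 weeks, with log2 fold changes of 0.73 ± 0.18 (SE), adjusted p = 0.0221, and 0.34 ± 0.14 (SE), adjusted p = 0.130. Bub3 encodes a WD-repeat protein that brings the checkpoint kinases to the kinetochore and is made in most cells. Its levels were 67.9, 79.0, 75.5 and 68.1 CPM on the CD and 76.5, 66.8, 66.2 and 66.6 CPM on the HF+SD at 6 weeks. At 3 weeks Bub3 was at 45.2, 45.4, 51.1 and 44.4 CPM on the CD and 44.4, 45.5, 46.2 and 46.6 CPM on the HF+SD. The diets overlapped at both times, M5 and M55 lay above the rest of their groups, and the log2 fold changes were -0.074 ± 0.11 (SE), adjusted p = 0.677, and -0.026 ± 0.070 (SE), adjusted p = 0.831. The 95% interval of its log2 fold change was -0.33 to 0.18 at 6 weeks and -0.18 to 0.13 at 3 weeks, the narrowest among the constitutive genes.

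In the chromosomal passenger complex, which corrects faulty kinetochore attachments and later guides cytokinesis, 3 of 4 subunit genes were called higher at each time point. Aurkb, its kinase, gave 0.517, 0.343, 0.130 and 0.597 CPM on the CD and 1.61, 2.41, 2.50 and 2.20 CPM on the HF+SD at 6 weeks. At 3 weeks the levels of Aurkb were 0.619, 0.677, 0.206 and 0.260 CPM on the CD and 2.39, 2.18, 1.76 and 2.03 CPM on the HF+SD. Diets did not overlap, and the log2 fold changes were 2.44 ± 0.38 (SE), adjusted p = 0.00295, and 2.25 ± 0.36 (SE), adjusted p = 0.00335. Birc5 encodes survivin, the subunit that binds centromeric chromatin. Birc5 was at 0.890, 0.502, 0.812 and 0.796 CPM on the CD and 3.06, 5.55, 5.15 and 4.78 CPM on the HF+SD at 6 weeks. It was at 0.842, 0.592, 0.540 and 0.284 CPM on the CD and 2.96, 2.79, 2.64 and 2.07 CPM on the HF+SD at 3 weeks. All HF+SD mice exceeded all CD mice, with log2 fold changes of 2.63 ± 0.27 (SE), adjusted p = 0.000396, and 2.21 ± 0.30 (SE), adjusted p = 0.00153. Cdca8, the gene of borealin, rose by 1.99 ± 0.29 and 2.13 ± 0.23 (SE), adjusted p = 0.00224 and 0.000546. Incenp, the scaffold of the complex, stood apart from its partners. Its 6-week values were 10.9, 7.90, 5.69 and 6.65 CPM on the CD and 7.81, 11.3, 11.8 and 11.01 CPM on the HF+SD. Its 3-week values were 11.4, 10.7, 6.69 and 11.6 CPM on the CD and 14.4, 16.6, 16.3 and 16.2 CPM on the HF+SD. M22 and M43 on the CD lay above M5 on the HF+SD at 6 weeks, and the diets were separate at 3 weeks. Incenp had log2 fold changes of 0.43 ± 0.23 (SE), adjusted p = 0.219, and 0.65 ± 0.16 (SE), adjusted p = 0.0260, so that it passed the test without the fold minimum at 3 weeks only.

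The inner kinetochore, which sits on centromeric chromatin, gave 1 call among 4 genes at each time point. Cenpa, the histone H3 variant that marks the centromere, was at 2.30, 2.44, 2.24 and 2.99 CPM on the CD and 6.12, 10.5, 9.34 and 7.76 CPM on the HF+SD at 6 weeks. The 3-week levels of Cenpa were 1.71, 1.89, 1.47 and 1.21 CPM on the CD and 4.17, 4.91, 5.71 and 4.82 CPM on the HF+SD. The diets were far apart at both times, with log2 fold changes of 1.76 ± 0.21 (SE), adjusted p = 0.000875, and 1.65 ± 0.18 (SE), adjusted p = 0.000637. Cenpk, a subunit of the centromere-associated network, measured 1.23, 1.58, 0.682 and 1.22 CPM on the CD and 2.40, 1.76, 2.47 and 2.18 CPM on the HF+SD at 6 weeks. Cenpk at 3 weeks measured 1.11, 1.27, 1.03 and 0.331 CPM on the CD and 1.29, 1.46, 1.24 and 0.972 CPM on the HF+SD. The groups were separate by a small gap at 6 weeks and overlapped at 3 weeks, with log2 fold changes of 0.89 ± 0.26 (SE), adjusted p = 0.0410, and 0.41 ± 0.36 (SE), adjusted p = 0.472. Cenpn, of the same network, had log2 fold changes of 0.66 ± 0.22 and 0.71 ± 0.21 (SE), adjusted p = 0.0642 and 0.0458. Cenpc1, the constitutive platform protein that links the centromere to the outer kinetochore, gave 26.3, 32.7, 23.6 and 19.6 CPM on the CD and 41.3, 28.4, 31.7 and 27.5 CPM on the HF+SD at 6 weeks. At 3 weeks Cenpc1 stood at 25.6, 21.6, 31.3 and 18.6 CPM on the CD and 23.1, 19.2, 22.03 and 19.9 CPM on the HF+SD. The diets overlapped at both times. Its log2 fold changes were 0.33 ± 0.19 (SE), adjusted p = 0.238, and -0.21 ± 0.15 (SE), adjusted p = 0.388, with 95% intervals of -0.095 to 0.76 and -0.54 to 0.13.

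In the outer kinetochore, which grips the microtubules, 6 of 10 genes were called higher at 6 weeks and 7 at 3 weeks. Ndc80 encodes the microtubule-binding subunit of the NDC80 complex. Its 6-week values were 0.746, 0.525, 0.617 and 0.625 CPM on the CD and 2.43, 4.11, 5.09 and 4.14 CPM on the HF+SD. Ndc80 was at 0.495, 0.564, 0.360 and 0.189 CPM on the CD and 1.83, 2.51, 2.59 and 2.24 CPM on the HF+SD at 3 weeks. The diets did not overlap, with log2 fold changes of 2.64 ± 0.27 (SE), adjusted p = 0.000379, and 2.51 ± 0.31 (SE), adjusted p = 0.000921. Its partner Nuf2 rose by 2.75 ± 0.23 and 2.57 ± 0.30 (SE), adjusted p = 0.000211 and 0.000772. Spc25, of the same complex, rose by 2.53 ± 0.27 and 1.68 ± 0.18 (SE), adjusted p = 0.000456 and 0.000622. Spc24, the fourth subunit, passed the adjusted p at 6 weeks below the fold minimum, with 0.87 ± 0.23 (SE), adjusted p = 0.0282, and was called at 3 weeks, with 1.68 ± 0.24 (SE), adjusted p = 0.00200.

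Cenpe, a kinesin that moves chromosomes to the spindle equator, measured 1.52, 1.55, 1.364 and 1.76 CPM on the CD and 8.78, 15.2, 17.9 and 9.40 CPM on the HF+SD at 6 weeks. At 3 weeks the values were 2.20, 2.57, 1.59 and 1.44 CPM on the CD and 5.94, 7.99, 7.19 and 6.26 CPM on the HF+SD. M18 and M34 were the highest mice at 6 weeks, and no CD mouse of either time came near the HF+SD range. The log2 fold changes of Cenpe were 3.04 ± 0.27 (SE), adjusted p = 0.000228, and 1.81 ± 0.20 (SE), adjusted p = 0.000682, and their difference in 1 fit of all 16 libraries was 1.17 ± 0.33 (SE), adjusted p = 0.0699. Cenpf encodes a large protein of the fibrous corona. Cenpf was at 1.52, 1.21, 0.910 and 1.17 CPM on the CD and 7.12, 16.1, 14.8 and 11.01 CPM on the HF+SD at 6 weeks. It was at 1.66, 1.75, 0.900 and 0.426 CPM on the CD and 6.24, 10.1, 8.82 and 7.38 CPM on the HF+SD at 3 weeks. M5 and M7 were the lowest of the HF+SD mice, above every CD mouse, and the log2 fold changes were 3.34 ± 0.30 (SE), adjusted p = 0.000228, and 2.79 ± 0.37 (SE), adjusted p = 0.00143. Knl1, the scaffold on which checkpoint proteins gather, rose by 3.18 ± 0.36 and 2.83 ± 0.24 (SE), adjusted p = 0.000604 and 0.000222.

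The constitutive subunits Mis12 and Dsn1 belong to the MIS12 complex, which joins the inner to the outer kinetochore. Mis12 was at 23.6, 40.3, 20.7 and 17.6 CPM on the CD and 41.5, 27.1, 24.5 and 19.8 CPM on the HF+SD at 6 weeks. At 3 weeks Mis12 was at 32.8, 35.3, 24.6 and 20.3 CPM on the CD and 20.8, 27.2, 22.6 and 20.4 CPM on the HF+SD. The CD and HF+SD mice were mixed at both times, with log2 fold changes of 0.14 ± 0.30 (SE), adjusted p = 0.769, and -0.31 ± 0.17 (SE), adjusted p = 0.255. Dsn1 measured 5.60, 4.84, 3.93 and 4.32 CPM on the CD and 4.19, 8.78, 8.90 and 7.49 CPM on the HF+SD at 6 weeks. Its 3-week values were 3.81, 4.34, 2.91 and 4.12 CPM on the CD and 4.41, 4.99, 5.48 and 5.12 CPM on the HF+SD. M5 lay among the CD mice at 6 weeks, and at 3 weeks M7 on the HF+SD lay just above M54, the highest CD mouse. Dsn1 had log2 fold changes of 0.65 ± 0.25 (SE), adjusted p = 0.0955, and 0.40 ± 0.16 (SE), adjusted p = 0.114, with 95% intervals of 0.082 to 1.22 and 0.051 to 0.75. Mis12 had intervals of -0.53 to 0.81 and -0.70 to 0.077. Zwint, a partner of KNL1 classed as mitosis-peaking, had log2 fold changes of 0.076 ± 0.18 (SE), adjusted p = 0.794, and -0.19 ± 0.11 (SE), adjusted p = 0.283, with 95% intervals of -0.32 to 0.48 and -0.44 to 0.061.

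Among the 6 spindle motor and assembly genes, 5 were called higher at each time point. Kif11 encodes the motor that pushes the spindle poles apart. At 6 weeks Kif11 was at 1.49, 2.06, 2.01 and 1.65 CPM on the CD and 6.33, 10.5, 11.02 and 9.03 CPM on the HF+SD. The 3-week mice had 1.88, 1.64, 1.80 and 1.11 CPM on the CD and 5.16, 6.81, 5.69 and 5.94 CPM on the HF+SD. The diets were separate, with log2 fold changes of 2.35 ± 0.23 (SE), adjusted p = 0.000306, and 1.88 ± 0.19 (SE), adjusted p = 0.000421. Kif2c, a kinesin that takes microtubules apart at centromeres, stood at 0.143, 0.343, 0.0650 and 0.284 CPM on the CD and 1.24, 2.92, 2.85 and 2.39 CPM on the HF+SD at 6 weeks. The 3-week values of Kif2c were 0.173, 0.451, 0.154 and 0.118 CPM on the CD and 1.99, 1.25, 1.42 and 1.75 CPM on the HF+SD. It was low in every CD mouse, and its log2 fold changes of 3.42 ± 0.46 (SE), adjusted p = 0.00138, and 2.85 ± 0.39 (SE), adjusted p = 0.00160, were among the 5 largest at both times. Nusap1, which bundles microtubules near chromosomes, rose by 2.82 ± 0.24 and 2.16 ± 0.32 (SE), adjusted p = 0.000194 and 0.00232. Kif4, a chromosome-bound kinesin, rose by 2.23 ± 0.32 and 1.60 ± 0.23 (SE), adjusted p = 0.00207 and 0.00212. Kif20b, a kinesin of late mitosis, gave 1.27 ± 0.29 (SE), adjusted p = 0.0168, at 6 weeks and missed the test at 3 weeks, with 0.88 ± 0.27 (SE), adjusted p = 0.0578. Without M48, M18 or M34 its 6-week call was lost (adjusted p = 0.0506 to 0.0535).

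The midzone and cytokinesis genes were the role in which all 6 genes were called at both time points, with log2 fold changes from 1.84 to 3.29 at 6 weeks and from 1.46 to 2.77 at 3 weeks. Prc1 encodes the protein that bundles antiparallel microtubules between the separating chromosomes. Prc1 measured 1.52, 1.51, 1.17 and 1.31 CPM on the CD and 10.2, 16.2, 17.2 and 10.5 CPM on the HF+SD at 6 weeks. Prc1 at 3 weeks measured 1.88, 0.987, 1.44 and 0.757 CPM on the CD and 5.30, 9.88, 10.3 and 9.09 CPM on the HF+SD. The lowest HF+SD mouse exceeded the highest CD mouse by a wide margin at both times. Prc1 had log2 fold changes of 3.29 ± 0.24 (SE), adjusted p = 0.000120, and 2.77 ± 0.31 (SE), adjusted p = 0.000640. Kif20a, a midzone kinesin, was at 1.61, 1.64, 1.66 and 1.96 CPM on the CD and 5.49, 12.4, 12.4 and 8.09 CPM on the HF+SD at 6 weeks. Its values at 3 weeks were 1.78, 1.75, 1.21 and 0.947 CPM on the CD and 5.38, 7.42, 6.67 and 6.19 CPM on the HF+SD. The CD mice of 6 weeks were close together, M48 being the highest, and the log2 fold changes were 2.48 ± 0.28 (SE), adjusted p = 0.000636, and 2.18 ± 0.22 (SE), adjusted p = 0.000425. Of the 48 genes, 10 share exon bases with another gene of the table on the opposite strand, and the strand setting of the counting was not given. Exons of Kif20a share 1271 bases (29.3% of its exon length) with Cdc23 on the opposite strand.

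Racgap1 encodes a subunit of centralspindlin, which starts the cleavage furrow. Racgap1 gave 1.92, 1.32, 1.364 and 1.05 CPM on the CD and 5.01, 9.50, 8.08 and 8.38 CPM on the HF+SD at 6 weeks. At 3 weeks Racgap1 gave 2.38, 2.79, 2.29 and 2.15 CPM on the CD and 4.92, 6.94, 7.06 and 7.44 CPM on the HF+SD. Its diets were separate, with log2 fold changes of 2.45 ± 0.27 (SE), adjusted p = 0.000516, and 1.46 ± 0.17 (SE), adjusted p = 0.000738. Anln, the gene of the furrow scaffold anillin, was at 3.44, 2.76, 3.35 and 2.96 CPM on the CD and 7.78, 14.0, 14.3 and 8.92 CPM on the HF+SD at 6 weeks. Its levels were 2.15, 1.58, 1.57 and 1.82 CPM on the CD and 5.92, 8.14, 7.88 and 6.68 CPM on the HF+SD at 3 weeks. M5 and M35 were the lower HF+SD mice at 6 weeks and lay above all CD mice, with log2 fold changes of 1.84 ± 0.24 (SE), adjusted p = 0.00116, and 2.00 ± 0.17 (SE), adjusted p = 0.000218. Kif23, the other centralspindlin subunit, rose by 2.04 ± 0.19 and 1.83 ± 0.20 (SE), adjusted p = 0.000288 and 0.000665. Ect2, the RhoA activator at the furrow, rose by 2.22 ± 0.22 and 1.49 ± 0.24 (SE), adjusted p = 0.000338 and 0.00354.

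Of the 4 anaphase genes, 2 were called higher at 6 weeks and 3 at 3 weeks. Cdc20, the activator of the anaphase-promoting complex (APC/C), was at 1.61, 1.51, 1.10 and 1.17 CPM on the CD and 3.59, 6.46, 5.55 and 5.00 CPM on the HF+SD at 6 weeks. At 3 weeks Cdc20 stood at 1.81, 1.72, 1.75 and 1.33 CPM on the CD and 4.36, 4.58, 5.51 and 5.73 CPM on the HF+SD. The diets did not overlap, with log2 fold changes of 1.93 ± 0.24 (SE), adjusted p = 0.000938, and 1.61 ± 0.17 (SE), adjusted p = 0.000497. Espl1 encodes separase, which cuts the cohesin between sister chromatids. Espl1 measured 0.402, 0.457, 0.715 and 0.682 CPM on the CD and 1.45, 2.19, 1.92 and 3.14 CPM on the HF+SD at 6 weeks. Its 3-week values were 1.46, 1.33, 1.31 and 0.639 CPM on the CD and 2.29, 3.12, 3.54 and 2.22 CPM on the HF+SD. All HF+SD mice were above all CD mice, with log2 fold changes of 1.95 ± 0.31 (SE), adjusted p = 0.00324, and 1.24 ± 0.28 (SE), adjusted p = 0.0168. Pttg1 encodes securin, the inhibitor of separase. Pttg1 was at 72.2, 74.4, 94.9 and 94.5 CPM on the CD and 71.7, 68.2, 76.9 and 75.6 CPM on the HF+SD at 6 weeks. At 3 weeks it was at 31.4, 36.7, 31.7 and 28.9 CPM on the CD and 36.0, 40.3, 36.2 and 37.0 CPM on the HF+SD. Its diets overlapped at both times, and the log2 fold changes were -0.20 ± 0.13 (SE), adjusted p = 0.309, and 0.22 ± 0.088 (SE), adjusted p = 0.127, with 95% intervals of -0.50 to 0.099 and 0.020 to 0.41.

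Ube2c, Aurka and Tpx2 stood out at 6 weeks. Ube2c encodes the ubiquitin-conjugating enzyme of the APC/C, Aurka the centrosomal kinase Aurora A, and Tpx2 the spindle protein that activates it. At 6 weeks Ube2c measured 0.890, 3.20, 20.4 and 10.5 CPM on the CD and 3.03, 5.99, 5.76 and 5.32 CPM on the HF+SD. Aurka measured 0.861, 2.26, 10.5 and 5.20 CPM on the CD and 2.29, 4.30, 4.13 and 3.17 CPM on the HF+SD. Tpx2 measured 1.23, 1.96, 9.26 and 4.41 CPM on the CD and 6.75, 10, 9.04 and 7.76 CPM on the HF+SD. In each of the 3 genes the CD mice came in the order M22, M43, M48, M45, which is also the order of their skeletal muscle share of 0.110%, 3.90%, 11.9% and 16.6%, and M45 lay above or among the HF+SD mice. The 6-week log2 fold changes were -0.80 ± 0.74 (SE), adjusted p = 0.473, for Ube2c, -0.43 ± 0.62 (SE), adjusted p = 0.651, for Aurka and 1.00 ± 0.53 (SE), adjusted p = 0.210, for Tpx2.

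At 3 weeks, where no library held more than 0.0248% of muscle counts, the CD mice were low in all 3 genes. Ube2c was at 0.545, 0.592, 0.334 and 0.142 CPM on the CD and 2.80, 2.79, 3.77 and 2.68 CPM on the HF+SD. Aurka was at 0.718, 1.02, 0.334 and 0.734 CPM on the CD and 2.12, 2.48, 3.57 and 2.71 CPM on the HF+SD. Tpx2 was at 1.83, 0.931, 3.42 and 0.970 CPM on the CD and 5.27, 6.88, 7.21 and 6.19 CPM on the HF+SD. All HF+SD mice lay above all CD mice in each, and the log2 fold changes were 2.90 ± 0.35 (SE), adjusted p = 0.000917, for Ube2c, 1.96 ± 0.31 (SE), adjusted p = 0.00333, for Aurka and 1.83 ± 0.37 (SE), adjusted p = 0.0109, for Tpx2. The difference between time points was -3.78 ± 0.95 (SE), adjusted p = 0.0616, for Ube2c, -2.47 ± 0.77 (SE), adjusted p = 0.0851, for Aurka and -0.91 ± 0.71 (SE), adjusted p = 0.480, for Tpx2 (log2, 6 minus 3 weeks, edgeR). Without M22 the difference passed for Ube2c (-4.15, adjusted p = 0.00198) and Aurka (-2.80, adjusted p = 0.00739), and without M43 likewise (-4.06, adjusted p = 0.0329, and -2.71, adjusted p = 0.0480). In these fits 14.1% and 6.70% of all genes passed. M22, the CD mouse with under 1% of muscle counts, differed from the other CD mice of 6 weeks in its parathyroid markers as well. Their sum was 16946 CPM in M22 and 2639 to 5181 CPM in the others. With M22 as the only CD mouse, the 6-week log2 fold change was 2.49 for Ube2c, 2.00 for Aurka and 2.76 for Tpx2. In that fit the lone mouse was taken to vary like the HF+SD mice, and 27 members were called higher, against 2.86% of all genes. The 6-week calls of Bub1b, Ttk, Plk1, Kif20b, Kif4, Anln, Cdc20, Espl1 and Foxm1 were lost in it, with log2 fold changes from 0.66 (Plk1) to 2.59 (Ttk). Exons of Ube2c share 592 bases (22.8% of its exon length) with Tnnc2, a troponin gene of fast muscle on the opposite strand. Tnnc2, named after its values were seen, was at 45.2, 1748, 11374 and 6166 CPM on the CD, in the usual order of mice, and at 56.6 to 203 CPM on the HF+SD. Exons of Aurka and Tpx2 share no bases with exons of another gene in GENCODE M21. The part of muscle RNA in these 3 genes was not tested beyond these fits.

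**Figure D3:**
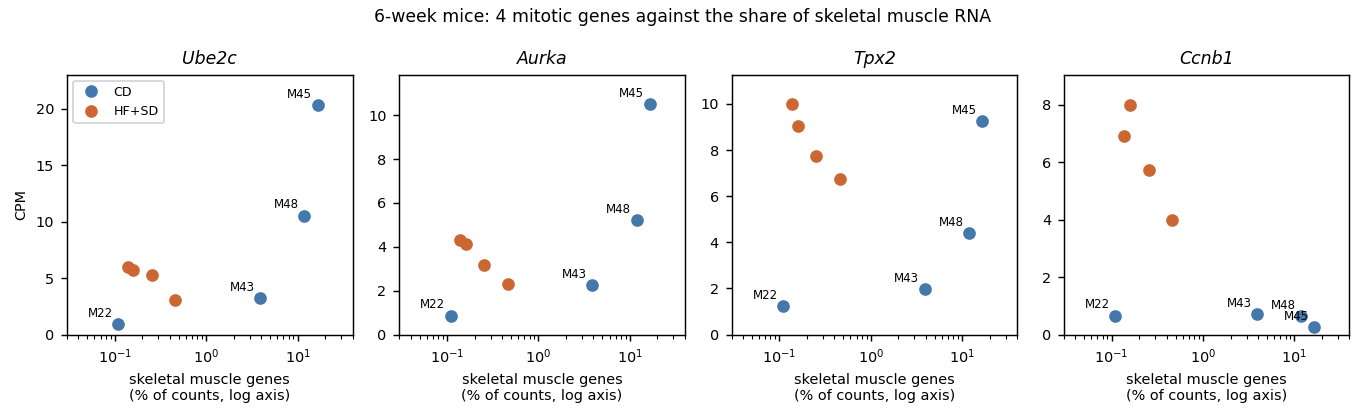
CPM of 4 genes (y axis, from 0) against the percent of counts taken by 30 muscle genes (x axis, log axis) in the 8 mice of 6 weeks, blue for the CD with mouse names and orange for the HF+SD. Ube2c, Aurka and Tpx2 climb with the share among the CD mice, Ube2c from 0.890 CPM in M22 to 20.4 CPM in M45, while Ccnb1 stays between 0.260 and 0.708 CPM in the CD mice.

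The level of the genes on the CD spanned a wide range when divided by exon length (GENCODE M21). At 6 weeks it ran from 0.0370 CPM per kb for Knl1 to 42.0 for Pttg1, and at 3 weeks from 0.0338 for Bub1 to 17.8 for Zwint. The 4 constitutive genes were at 1.39 (Dsn1), 4.53 (Cenpc1), 8.51 (Mis12) and 10.4 (Bub3) CPM per kb on the CD at 6 weeks. Pttg1 and Zwint, with 42.0 and 23.1 CPM per kb, lay above all of them, although both were classed as mitosis-peaking. Incenp, at 1.80 CPM per kb, lay between Dsn1 and Cenpc1. None of the 6 genes of the highest level at 6 weeks (Pttg1, Zwint, Bub3, Mis12, Cenpc1 and Ube2c) was called there, nor was any of the 5 highest at 3 weeks (Zwint, Pttg1, Mis12, Bub3 and Cenpc1). Ube2c was at 20.4 and 10.5 CPM in M45 and M48, the CD mice with the largest muscle shares. In M22 and M43 it was at 0.890 and 3.20 CPM. At 3 weeks the CD level of Ube2c was 0.155 CPM per kb, and it was called higher. The CD level is also the denominator of the fold change, so the relation was not tested.

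**Figure D4:**
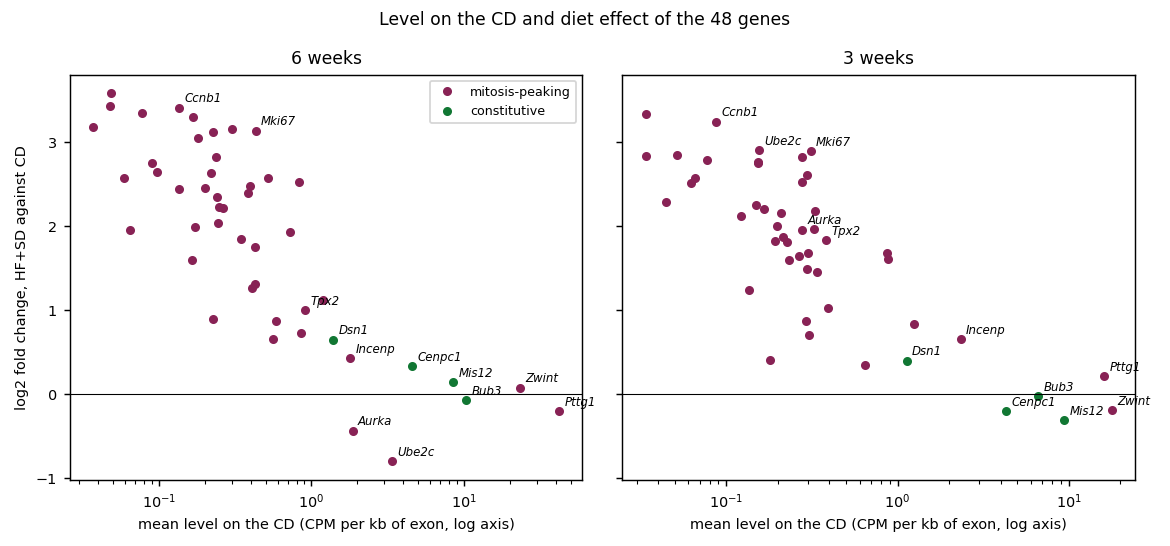
Log2 fold change, HF+SD against CD (y axis), against the mean level on the CD (x axis, CPM per kb of exon, log axis), at 6 weeks on the left and 3 weeks on the right, with 1 dot per gene, purple for mitosis-peaking and green for constitutive genes. Pttg1 and Zwint sit at the far right, beyond or beside the green dots, with log2 fold changes between -0.20 and 0.22.

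Within a group, the same mouse was often the lowest or the highest for many of the 44 mitosis-peaking genes. The same counts were not made over all genes. They therefore do not show that these genes vary together more than genes at large. Among the HF+SD mice of 6 weeks, M5 was the lowest for 34 of the 44 genes, and M18 or M34 was the highest for 20 and 21 of them. Among the HF+SD mice of 3 weeks, M7 was the lowest for 31 genes and M19y the highest for 20. On the CD, M96 was the lowest for 29 genes at 3 weeks, and M45, the mouse with the largest muscle share, for 25 at 6 weeks. The mean log2 CPM of the 44 genes (prior count 2) was 0.76, 0.77, 0.62 and 0.86 in the CD mice and 2.31, 2.96, 2.99 and 2.66 in the HF+SD mice at 6 weeks. At 3 weeks it was 0.70, 0.63, 0.20 and -0.13 on the CD and 2.05, 2.36, 2.35 and 2.21 on the HF+SD. The diets did not overlap, and the spread among HF+SD mice was smaller than the distance to the CD mice. For the 4 constitutive genes the same mean ran from 4.17 to 4.74 in CD mice and from 4.52 to 4.77 in HF+SD mice at 6 weeks, and from 4.03 to 4.31 and from 4.14 to 4.24 at 3 weeks, with overlap at both. M5, the lowest HF+SD mouse for most mitosis-peaking genes, was the highest for 3 of the 4 constitutive genes.

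**Figure D5:**
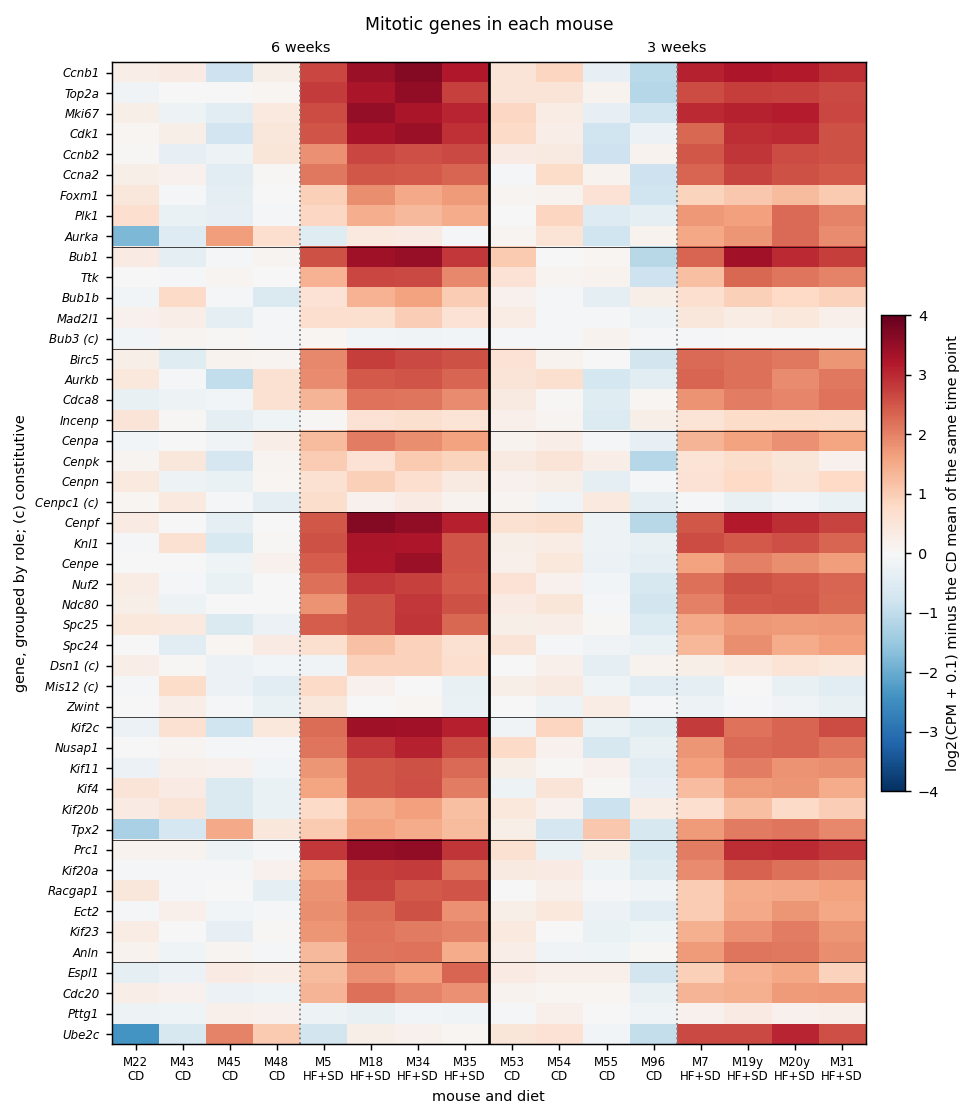
Each cell gives log2(CPM + 0.1) of a gene (rows, grouped by role) in a mouse (columns) minus the mean of the CD mice of the same time point, from blue (lower) to red (higher). The HF+SD columns are red in most rows and paler in M5 than in M18 and M34, the rows of the 4 constitutive genes, marked (c), and of Zwint and Pttg1 are near white, and Ube2c, Aurka and Tpx2 split the CD mice of 6 weeks.

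Genes of the same process outside the 48 were counted by list. Over all tested genes, 6.64% were called higher and 6.01% lower at 6 weeks, and 3.25% and 1.40% at 3 weeks. Of 56 other mitosis-peaking genes, 55 were tested at 6 weeks, where 38 were called higher (69.1%, median log2 fold change 2.06), and all 56 at 3 weeks, where 36 were (64.3%, median 1.73). Leading examples were Pimreg, a partner of clathrin assembly factors in dividing cells, with 4.34 (adjusted p = 0.000421) at 6 weeks and 3.79 (adjusted p = 0.000801) at 3 weeks. Kif18b and Cdc25c, a kinesin and the phosphatase that activates CDK1, changed by 4.01 and 3.86 at 6 weeks (adjusted p = 0.000868 and 0.000217). Ska1, a kinetochore-microtubule linker, and Hmmr, a spindle protein, changed by 4.05 and 3.94 at 3 weeks (adjusted p = 0.00254 and 0.000218). Of 21 other structural kinetochore subunits, 8 were called at 6 weeks and 6 at 3 weeks (medians 0.73 and 0.51). Among them Kntc1, a checkpoint subunit at kinetochores, had log2 fold changes of 2.35 and 2.04 (adjusted p = 0.00167 and 0.00208). Cenpi, an inner kinetochore subunit, had 2.59 at 6 weeks (adjusted p = 0.000428), and Nsl1, of the MIS12 complex, 1.71 at 3 weeks (adjusted p = 0.0191).

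Genes of mitotic machinery that are made throughout the cell cycle stayed near the median of all genes. Of 16 APC/C core subunits 0 were called higher at either time, and only Anapc5 was called lower, at 6 weeks (-1.19, adjusted p = 0.0299). Anapc5 was at 299, 385, 946 and 592 CPM on the CD and at 233 to 250.2 CPM on the HF+SD, and its CD values followed the order of the muscle share. With M22 as the only CD mouse its log2 fold change was -0.30 (adjusted p = 0.264), and without M45 it was -0.83 (adjusted p = 0.0432), below the fold minimum. Its call was also lost without M48 or any 1 HF+SD mouse (adjusted p = 0.0676 to 0.0826). The APC/C medians were -0.059 at 6 weeks and 0.00029 at 3 weeks, and 2 subunits were higher at an unadjusted p under 0.05 at each time. DESeq2 also called 0 APC/C subunits higher. Of 10 cohesin genes 0 were called at either time by edgeR or DESeq2 (medians 0.031 and -0.13). At an unadjusted p under 0.05, 0 cohesin genes passed at 6 weeks and 2, both lower, at 3 weeks. Of 19 constitutive genes of microtubule nucleation 0 were called at 6 weeks by either tool, with 2 higher at an unadjusted p under 0.05. At 3 weeks 1 was called, Tubg1, the gene of gamma-tubulin (1.17, adjusted p = 0.000846), with medians of -0.091 and -0.029. A CHR match lay in 61.2% of the promoters of the other mitosis-peaking genes, in 11.1% of those of the APC/C, in 12.5% of those of cohesin and in 17.6% of those of microtubule nucleation.

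Markers of the cell types in the tissue moved with the diet beside the mitotic genes. Of all tested genes, 6.64% were called higher and 6.01% lower at 6 weeks, and 3.25% and 1.40% at 3 weeks. With no fold minimum, 12.0% and 9.07% passed as higher. In a short list, 1 call can lie close to these shares. Of 12 endothelial markers 11 were called higher at 6 weeks and 2 at 3 weeks, where 11 passed with no fold minimum. Their summed level ranged from 420 to 569 CPM in CD mice and from 1528 to 1796 CPM in HF+SD mice at 6 weeks, and from 747 to 1011 CPM and from 1392 to 2038 CPM at 3 weeks. Eng, an endothelial co-receptor, led at both times, with 2.44 (adjusted p = 0.000919) and 1.65 (adjusted p = 0.000778). Kdr, a receptor for vascular growth factor, changed by 1.92 and 1.05 (adjusted p = 0.000216 and 0.00175), and Plvap by 2.32 at 6 weeks (adjusted p = 0.000259). Of 13 thyrocyte markers 7 and 5 were called higher at 6 and 3 weeks, Slc26a4 and Slc5a5 among them at both times. Of 10 macrophage markers 1 was called at 6 weeks (Mrc1, 1.11, adjusted p = 0.00704) and 7 passed with no fold minimum. At 3 weeks 0 of the 10 were called by either tool, and 2 were higher at an unadjusted p under 0.05. The macrophage sum ranged from 254 to 433 CPM in CD mice and from 413 to 481 CPM in HF+SD mice at 6 weeks, and from 183 to 239 CPM and from 201 to 287 CPM at 3 weeks. Which cells held the mitotic RNA, and the part of these cell types in it, was not tested.

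The remaining marker lists moved in different directions and by different amounts. The shares of all genes given above apply to these lists too. Of the thymocyte markers, from a tissue rich in dividing cells, 2 of 10 tested were called lower at 6 weeks (Arpp21 and Cd1d1). At 3 weeks 1 of 8 (Cd1d1) was called lower, and at both times 0 were called higher by either tool. The log2 fold change was positive in 6 of the 10 (median 0.27) and in 7 of the 8 (median 1.42). Cd1d1 alone averaged 17.5 CPM on the CD and 7.81 CPM on the HF+SD at 6 weeks. The thymocyte sum ranged from 34.5 to 45.2 CPM in CD mice and from 24.8 to 28.1 CPM in HF+SD mice at 6 weeks, and from 24.8 to 28.4 CPM in CD mice at 3 weeks. Among the HF+SD mice of 3 weeks M7 had 132 CPM and the other mice 16.5 to 18.6 CPM. Rag1, Rag2, Dntt and Ptcra were not analysed here. Cd8b1, a defining thymocyte marker, had 0 counts in 4 libraries and 329 in its highest, of the HF+SD at 3 weeks, and without M7 there were again 36 members called higher. At an unadjusted p under 0.05, 2 thymocyte markers were higher at each time point. Of 7 erythroid precursor markers 1 was called higher at 6 weeks (Alas2, 1.23, adjusted p = 0.0142), and of 6 at 3 weeks 0 were, by either tool, with 3 at an unadjusted p under 0.05. Of 11 fibroblast and mural markers 2 and 1 were called higher. Of 9 adipocyte markers 7 were called lower at 6 weeks and 6 at 3 weeks, led by Ucp1 and Cidea, genes of brown fat. Of 29 skeletal muscle markers 28 were called lower at 6 weeks, led by Myh2, Ttn and Neb, and 1 of 23 (Pvalb) was called higher at 3 weeks. At 6 weeks 0 of them had every HF+SD mouse below every CD mouse, against 9.97% of all genes. The muscle sum of the CD mouse M22 (946 CPM) lay below that of every HF+SD mouse (1335 to 4415 CPM). Of 6 parathyroid markers 2 (Tbx1 and Gata3) were called lower at 6 weeks, and at 3 weeks 0 were called by either tool or at an unadjusted p under 0.05. Of 7 C cell markers, at 6 weeks Nkx2-2 was called higher and Calcb lower, and at 3 weeks 0 were called by either tool, with 1 higher and 4 lower at an unadjusted p under 0.05. Of the B cell markers, 3 were tested at 6 weeks and 4 at 3 weeks, and 0 were called by either tool or at an unadjusted p under 0.05.

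Scaling to thyrocyte genes in place of all genes moved the log2 fold changes down together. The standard itself moved with the diet. Of its 9 genes, 3 were called higher at 6 weeks, namely Slc26a4 (4.26), Cdh16 (1.69) and Iyd (1.32), where 6.64% of all genes were. At 3 weeks 1 was (Slc26a4, 3.00), where 3.25% of all genes were. A shift of all genes downward therefore follows from the choice of standard. With 9 thyrocyte genes as the standard, the median over all genes shifted by -0.999 at 6 weeks and by -0.54 at 3 weeks. Under it 25 members were called higher and 3 lower (Bub3, Ube2c and Pttg1) at 6 weeks, where 1.81% of all genes were higher and 49.9% lower. At 3 weeks 32 were higher and 0 lower, where 1.68% of all genes were higher and 9.45% lower. The mitosis-peaking median was then 1.30 at 6 weeks and 1.43 at 3 weeks, and the constitutive median -0.76 and -0.66. The medians of both classes moved by about the shift of all genes.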

How the data were processed

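RNA of whole thyroids from 16 mice was sequenced, 1 library per mouse. The authors deposited raw counts per gene, and the submitters' processing notes name Trim Galore 0.6.7, STAR, DESeq2 1.36.0 in R 4.1.0 and the mm39 build. For the counter and its strand setting the sources used here give nothing. A deposited normalized table was not used. Gene names came from GENCODE M21 for 20841 of 21640 gene IDs, and exon lengths and overlaps from the same annotation (GRCm38). Promoters were taken from RefSeq (GRCm38.p6).

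Counts were analysed in R 4.3.3 with edgeR 4.0.16: TMM scaling, filterByExpr, and the quasi-likelihood test of HF+SD against CD within each time point, with Benjamini-Hochberg adjustment over all tested genes. A call required an adjusted p under 0.05 and a log2 fold change beyond 1. The interaction of diet and time was fitted over all 16 libraries. All adjusted p-values are from edgeR unless DESeq2 (1.42.0, the alternative) is named. The test was checked on simulated data. Intervals of 95% use the standard error and the total degrees of freedom of the fit, which are the residual ones plus those borrowed across genes. The biological coefficient of variation was 31.2% at 6 weeks and 18.2% at 3 weeks, and replicates differed by more than sampling noise. P-values set the difference between diets against the spread between mice. The paper states that mice shared cages, the labels name no cage, and each mouse was treated as independent.

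The members and the 17 lists (thyrocyte, cell type and pathway genes) were chosen with earlier results of these data known. Genes named with the values of every mouse are a fixed selection of each role and the 5 largest changes at each time point, and genes of other lists are from the 3 largest called changes, of which some are not reported here. A legend of the study gives fewer CD mice at 6 weeks than the labels, without naming them, and all labelled mice were used. The alternatives were DESeq2, its size factors, other filters, thyrocyte scaling, 1 fit of all libraries, a muscle covariate, the CD mouse with little muscle alone, and leaving out each mouse. The scaling to 8 thyrocyte genes was added after the data were seen.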

Additional observations from a re-analysis of the deposited data

Results flagged for a closer look

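In 35 members with values shown for every mouse, or among the largest changes, 140 groups of 4 mice were screened for a mouse far from the rest by Dixon's criterion (a gap above 0.829 of the group's range). It marked 6 groups (4.29%), and chance marks about 1 in 20. At 6 weeks, Ccnb1 was at 0.260 CPM in the CD mouse M45, where the nearest CD mouse had 0.654 CPM. Kif20a was at 1.96 CPM in the CD mouse M48, with the nearest at 1.66 CPM. Bub3 was at 76.5 CPM in the HF+SD mouse M5, with the nearest at 66.8 CPM. At 3 weeks, Bub3 was at 51.1 CPM in the CD mouse M55, with the nearest at 45.4 CPM. Kif2c was at 0.451 CPM in the CD mouse M54, with the nearest at 0.173 CPM. Ube2c was at 3.77 CPM in the HF+SD mouse M20y, with the nearest at 2.80 CPM. No mouse was marked for more than 1 gene. For the 4 genes called higher at the time point concerned, Ccnb1, Kif20a, Kif2c and Ube2c, every HF+SD mouse remained above every CD mouse.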

How the results depend on the processing

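Members called higher numbered 32 to 35 at 6 weeks and 34 to 36 at 3 weeks when 1 mouse was left out, with 0 lower. Of all genes, 5.49% to 8.22% at 6 weeks and 2.59% to 3.75% at 3 weeks were called higher in these fits. The mitosis-peaking median then ran from 2.16 to 2.43 and from 1.86 to 2.05, and the constitutive median from 0.049 (without M5) to 0.43 (without M43) at 6 weeks and from -0.18 to -0.019 at 3 weeks. The interaction then called 0 to 6 members, 6 without M22 (14.1% of all genes), 2 without M43 (6.70%) and 0 without any other mouse. DESeq2 called 4 members for the interaction (9.46% of all genes) and scaling to 9 thyrocyte genes 3 (8.21%), so none of these counts stood out from all genes. With at least 10 counts in every library, 43 members were tested at 6 weeks (29 higher, median of mitosis-peaking genes 2.04) and 38 at 3 weeks (26 higher). Of all genes tested in this way, 5.84% and 2.55% were higher. A minimum in every library removes genes low on the CD.

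Scaling to 9 thyrocyte genes gave 25 higher and 3 lower at 6 weeks (1.81% and 49.9% of all genes), with class medians of 1.30 and -0.76, and medians of 1.43 and -0.66 at 3 weeks. It turned Mad2l1 (-0.26), Incenp (-0.53), Dsn1 (-0.34), Mis12 (-0.85), Cenpc1 (-0.66), Cenpk (-0.097) and Tpx2 (-0.14) negative at 6 weeks, and Mad2l1 (-0.20), Dsn1 (-0.15), Cenpk (-0.11) and Pttg1 (-0.32) at 3 weeks. With 8 genes (Slc26a4 left out, an alternative added after seeing the data) the 6-week medians were 1.68 and -0.35 (31 higher), with Incenp at -0.13, Mis12 at -0.45 and Cenpc1 at -0.25. At 3 weeks the constitutive median was then -0.34 (35 higher), with Pttg1 at -6.6e-05. With these 8 genes, 2.95% of all genes were higher and 22.2% lower at 6 weeks, and 2.25% and 2.99% at 3 weeks.

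With the muscle score as a covariate 32 members were higher at 6 weeks, against 5.13% of all genes. Aurka was then at 1.55 (adjusted p = 0.130) and Ube2c at 1.92 (adjusted p = 0.0972). The call of Tpx2 was gained (2.48, adjusted p = 0.0168), and those of Bub1b (0.94, adjusted p = 0.245), Plk1 and Kif20b were lost. With M22 as the only CD mouse 27 were higher (9 calls lost, Foxm1 with adjusted p = 0.180 and Espl1 with 0.0538 among them, and 2 gained), with Aurka at 2.00, Ube2c at 2.49, Bub3 at 0.019, Pttg1 at 0.012 and Incenp at -0.067. With 1 mouse left out, Aurka ran from -0.78 (without M22) to 0.30 (without M45), Ube2c from -1.17 to 0.012 (the same mice) and Mis12 from -0.10 (without M5; -0.0026 without M48) to 0.42 at 6 weeks, and Bub3 from -0.049 to 0.022 (without M55) at 3 weeks. Calls were lost for Bub1b (6 weeks) in 6 of 8 such fits, for Kif20b (6 weeks) in 3 (without M48, M18 or M34, adjusted p = 0.0506 to 0.0535), for Foxm1 (3 weeks) in 5 and for Espl1 (3 weeks) in 1, and gained for Cenpk and Tpx2 (6 weeks) in 1 each. The cause was not tested. No paired analysis was possible because the mice of the groups share no replicate numbers. At a 0 count the limit is 3 counts, which cover counting error only.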
